A study of Mus musculus with 28 samples.

Results

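The genes described here are the mouse orphan and purinergic G protein-coupled receptors, taken by name as every protein-coding gene in both deposited tables called Gpr or P2ry plus a number and at most 1 further letter. The rule found 83 of 55487 gene IDs, of which 40 reached a group mean of 1 CPM (counts per 1 M reads) in at least 1 group. Splenic dendritic cell populations of C57BL/6 mice were sorted and profiled by bulk RNA-seq in 2 experiments, which gave 28 libraries in 14 groups of 2 biological replicates. Conventional dendritic cells come as cDC1, the subset that excels at showing captured antigen to CD8 T cells, and as cDC2, which mainly prime CD4 T cells, and another population is labelled hybrid DC. In experiment 1, cDC1 and cDC2 came from wild-type (WT), Irf8 +32H/+ (H/+) and Irf8 +32H/H (H/H) animals, and hybrid cells from the last 2 genotypes, where +32H is an altered allele of the Irf8 enhancer at +32 kb. In experiment 2, WT animals gave cDC1 alone, H/H and H/H Nfil3-/- animals each gave cDC1 as well as hybrid cells, and H/H Zeb2 -165D123 animals gave hybrid cells alone. The mice that lacked Nfil3 or carried the altered Zeb2 allele were therefore also H/H, and their controls were H/H, not WT. Ages and sort gates were not given in the sources used here, and no WT hybrid group was analysed here.

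G protein-coupled receptors sit in the cell membrane, bind a ligand outside and switch on G proteins inside, after which kinases, arrestins and RGS proteins end the signal. P2Y receptors sense nucleotides and nucleotide sugars that stressed, dying or secreting cells release, while many Gpr genes are still orphans without an agreed ligand. In the spleen GPR183, a receptor for oxysterols, is known for guiding dendritic cells and B cells to their places, and other members sense protons, lysophospholipids or metabolites.

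The name of the group holds only in part. Of the 83 genes, 7 encode nucleotide receptors, 4 encode receptors of or related to those for lysophosphatidylserine, 4 encode proton-sensing receptors and 6 encode receptors for other lipids or metabolites. A further 53 are orphans or receptors of other kinds, and 9 encode intracellular membrane proteins that carry a Gpr name, such as Gpr107 and Gpr108, and are not classical receptors. The deposited tables call Gpr141b protein-coding, whereas GENCODE M21 lists it as a long noncoding RNA.

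Library totals ran from 23.4 to 38.2 M counts in experiment 1 and from 17.5 to 22.7 M in experiment 2. The cDC1 markers, 10 genes such as Xcr1 and Clec9a, summed to 5452 to 6162 CPM in WT cDC1 of experiment 1 and to 472 to 480 CPM in WT cDC2. The 9 cDC2 markers, such as Sirpa and Irf4, summed to 28.4 to 30.7 CPM and to 1319 to 1401 CPM in the same groups, and the hybrid libraries lay between on both sums. In bulk RNA a lower value can come from fewer cells of a type or from less RNA per cell, and these cannot be told apart.

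Gpr33, Gpr141b and P2ry14 had the widest gaps between WT cDC1 and WT cDC2 among the genes higher in cDC1, and their promoter windows are shown with that of Gpr141, the neighbour and namesake of Gpr141b that had the opposite pattern. Each window is RefSeq sequence on GRCm38.p6, 300 bases long, from 250 bases before to 50 after the annotated start, written 5′ to 3′ on the gene's strand, which is the minus strand for all 4. Capitals mark matches, on either strand, to 4 motifs: GAAA followed 2 bases later by a second GAAA for IRF factors, TGANTCA for AP-1, TTANNTAA for NFIL3 and PAR bZIP factors, and CACCTG, an E box of the kind ZEB2 binds. The windows lie at chr12:52028014-52028313 (Gpr33), chr13:19732902-19733201 (Gpr141b), chr3:59153443-59153742 (P2ry14) and chr13:19824208-19824507 (Gpr141).
Gpr33: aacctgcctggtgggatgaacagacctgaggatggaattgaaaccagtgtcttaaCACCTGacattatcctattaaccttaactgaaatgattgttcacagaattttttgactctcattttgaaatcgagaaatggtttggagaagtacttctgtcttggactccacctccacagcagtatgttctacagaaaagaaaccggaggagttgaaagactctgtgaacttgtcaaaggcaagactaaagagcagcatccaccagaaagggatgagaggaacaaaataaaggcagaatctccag
Gpr141b: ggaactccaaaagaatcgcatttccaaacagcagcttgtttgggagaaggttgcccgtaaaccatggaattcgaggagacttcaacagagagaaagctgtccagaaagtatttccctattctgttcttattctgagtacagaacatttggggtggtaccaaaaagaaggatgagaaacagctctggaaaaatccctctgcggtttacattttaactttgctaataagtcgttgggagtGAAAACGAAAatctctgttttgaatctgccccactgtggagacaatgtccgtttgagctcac
P2ry14: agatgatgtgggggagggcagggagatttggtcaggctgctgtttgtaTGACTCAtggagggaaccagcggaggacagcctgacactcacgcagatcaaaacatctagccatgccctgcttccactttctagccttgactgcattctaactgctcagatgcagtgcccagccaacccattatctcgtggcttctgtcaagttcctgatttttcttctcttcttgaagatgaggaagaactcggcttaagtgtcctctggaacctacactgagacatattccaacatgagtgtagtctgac
Gpr141: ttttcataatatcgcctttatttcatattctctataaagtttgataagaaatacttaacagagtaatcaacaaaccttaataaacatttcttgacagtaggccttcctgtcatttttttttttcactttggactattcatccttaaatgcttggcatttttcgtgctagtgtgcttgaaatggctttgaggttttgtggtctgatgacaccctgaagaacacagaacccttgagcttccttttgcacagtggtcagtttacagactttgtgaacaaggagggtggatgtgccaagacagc

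The Gpr141b window held an IRF-type match that began 12 bases before the start, the P2ry14 window an AP-1 match 202 bases before it and the Gpr33 window an E box 195 bases before it. The Gpr141 window held no match to the 4 motifs. Over all 32851 RefSeq windows of this length, 3.44% held the IRF motif, 7.81% the AP-1 motif, 6.0% the TTANNTAA motif and 20.2% the E box, so each match is a kind found in many promoters. Of the 26 members that differed between WT cDC1 and WT cDC2, 22 had a window. Among the 15 of these that were lower in cDC1, Gpr18 also held the IRF motif, P2ry10 and P2ry10b held the AP-1 motif, and none held TTANNTAA. The E box was in 3 of the 15, Gpr160, Gpr83 and P2ry2. The 7 that were higher in cDC1 held TTANNTAA in no window either, and 2 of them, Gpr33 and Gpr4, held the E box. A match describes letters only, and binding was not measured.

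**Figure D1:**
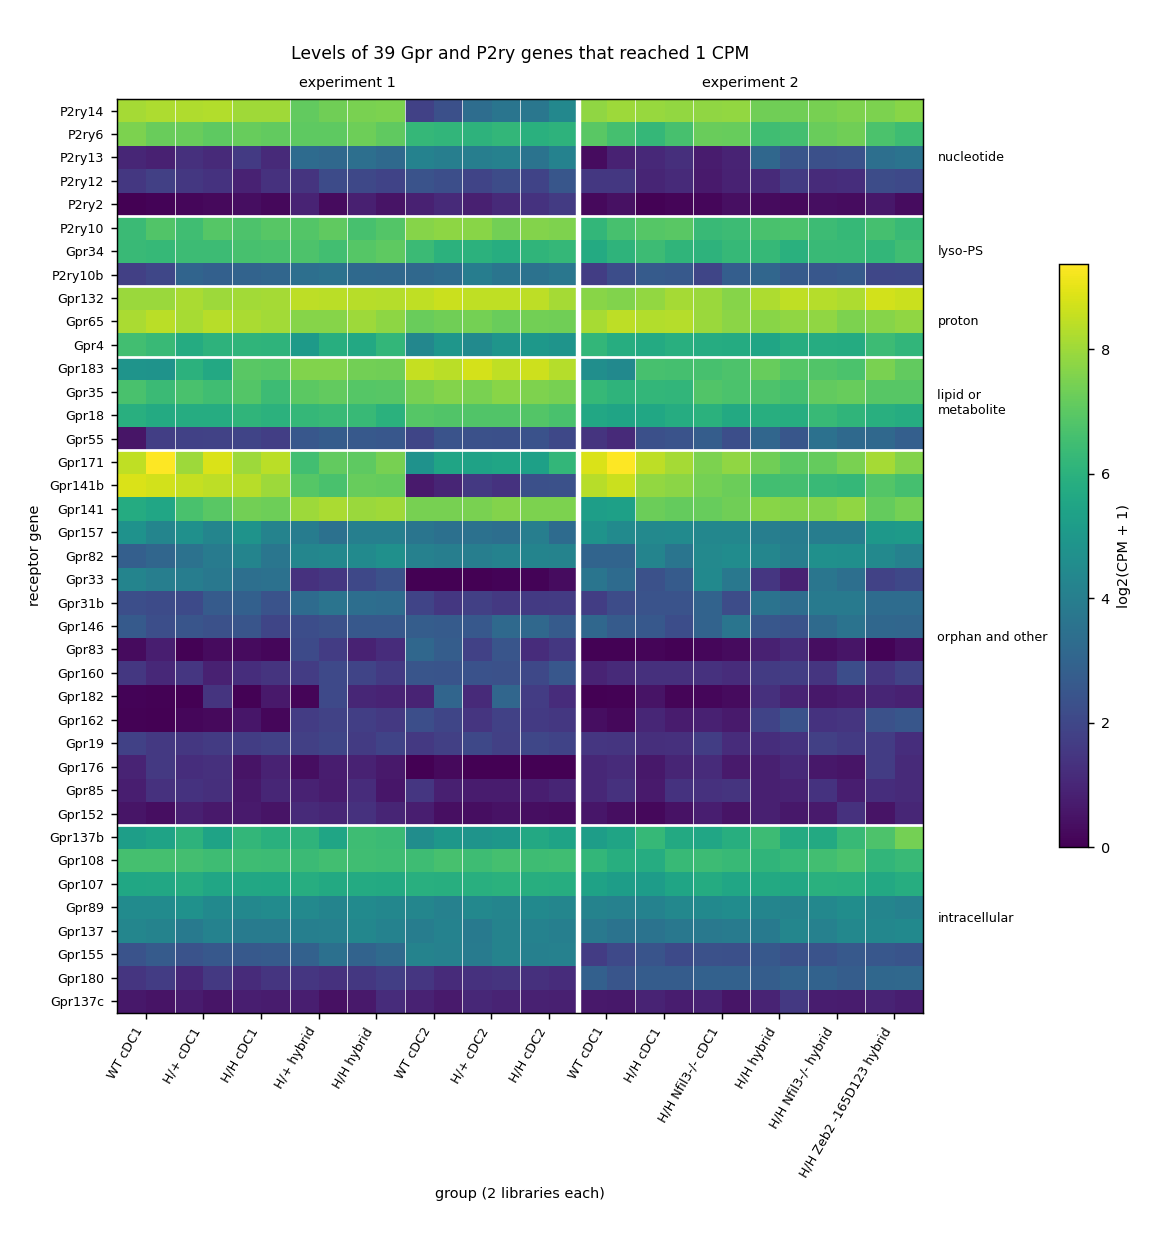
Levels of 39 of the 40 genes that reached 1 CPM, as log2(CPM + 1) by colour, with 1 row per gene grouped by the kind of ligand or protein and 1 column per library, the 2 replicates of a group side by side. P2ry14 and Gpr141b are bright in cDC1 and hybrid cells and dark in cDC2, Gpr183 is brightest in cDC2 and least bright in WT cDC1, and Gpr108 is even throughout.

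A core of these genes was present in every kind of cell. 28 of the 83 were at 1 CPM or more in all 14 groups, 13 reached 100 CPM in at least 1 group, and 31 to 36 were at 1 CPM or more in any single group. The other 43 never reached 1 CPM, and 3 of them had no counts at all. The share that was present was 5 of 7 for nucleotide receptors, 3 of 4 for lysophosphatidylserine receptors, 4 of 4 for proton-sensing receptors and 4 of 6 for other lipid or metabolite receptors. It was 8 of 9 for the intracellular proteins and 16 of 53 for orphans and others.

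Divided by the length of the longest annotated transcript, so that genes can be set beside each other, the highest levels in WT cDC1 were those of Gpr171 at 222 CPM per kb, Gpr141b at 158, Gpr65 at 151 and P2ry14 at 115. In WT cDC2 the highest were Gpr132 at 148 CPM per kb, Gpr183 at 130 and Gpr18 at 77.2. In the hybrid cells that H/H mice gave in experiment 1 they were Gpr132 at 131 CPM per kb, Gpr65 at 114 and P2ry6 at 73.9. The leading receptors of cDC1 were thus orphans, the proton sensor Gpr65 and a nucleotide receptor. Gpr65 and Gpr132, which also senses protons, stood high in all 3.

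WT cDC1 and WT cDC2 differed in most of the receptors that could be tested. 47 of the 83 passed the filter on low counts in experiment 1, and 29 of these passed the test (edgeR adjusted p below 0.05), 10 higher and 19 lower in cDC1. Of all genes tested 44.0% passed, 20.5% higher and 23.4% lower. The median log2 difference over the 47 was -0.57, and -0.07 over all genes. With Gpr33 set to its lower bound the median was also -0.57. Restricted to the genes that reached 1 CPM somewhere, 10 were higher, 16 lower and 14 did not pass. The plot of differences by gene shows 38 of the 40 and leaves out Gpr33, whose level in WT cDC2 was 0.

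**Figure D2:**
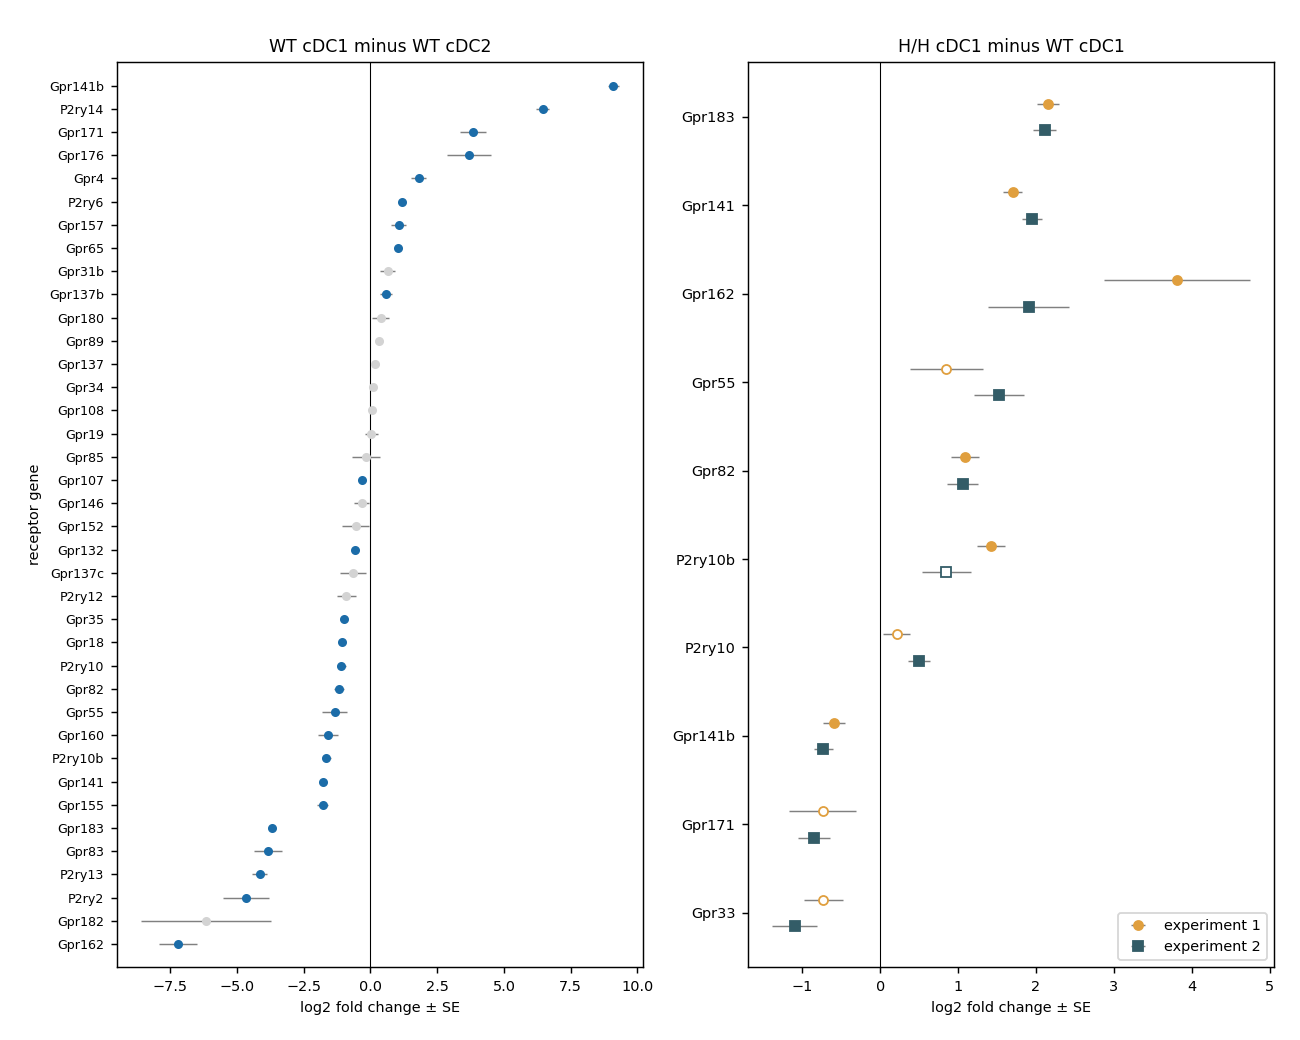
Left, log2 fold change ± SE of 38 genes in WT cDC1 minus WT cDC2 (blue, edgeR adjusted p below 0.05; grey, not), with Gpr33 left out because WT cDC2 had no counts. Right, the 10 genes past the threshold in H/H cDC1 minus WT cDC1 in either experiment (filled, past it; open, not); all 10 lie on the same side of 0 in both experiments.

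Among nucleotide receptors, P2ry14, the receptor for UDP-glucose (chr3:59113855-59153618, GRCm38, minus strand), had 274 and 295 CPM in the WT cDC1 libraries and 2.55 and 3.86 CPM in WT cDC2. The groups were far apart, with a log2 difference of 6.45 ± 0.24 (SE; edgeR adjusted p = 1.47e-10). P2ry6, a UDP receptor, had 180 and 149 CPM against 73.8 and 70.7 CPM, a log2 difference of 1.19 ± 0.11 (edgeR adjusted p = 5.73e-07). The ADP receptor P2ry13 had 0.983 and 0.818 CPM in cDC1 and 16.8 and 15.1 CPM in cDC2, which is a log2 difference of -4.15 ± 0.27 (edgeR adjusted p = 1e-08). P2ry2, a receptor for ATP and UTP, was near the detection limit in cDC1. It had 2 counts over both cDC1 libraries and 74 over the cDC2 libraries, a 28.7-fold ratio with an exact 95% counting interval of 7.66 to 241 (edgeR adjusted p = 0.000478). P2ry12, a second ADP receptor, averaged 2.15 CPM in cDC1 and 4.07 CPM in cDC2 and did not pass (edgeR adjusted p = 0.0515). P2ry14 and P2ry6 were thus higher in cDC1, and P2ry13 and P2ry2 were lower.

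Of the 6 genes listed here as receptors for other lipids or metabolites, the 4 that reached 1 CPM were all lower in cDC1. Of all genes tested 23.4% were lower. The count depends on how genes were assigned to this list, and Gpr31b, placed with the orphans and others, did not pass. Gpr183 had 27.9 and 26.8 CPM in WT cDC1 and 370 and 337 CPM in WT cDC2, without overlap, a log2 difference of -3.69 ± 0.15 (edgeR adjusted p = 3.18e-11). Gpr55, a receptor linked to lysophosphatidylinositol, differed by -1.34 ± 0.46, Gpr18, which binds lipid mediators, by -1.07 ± 0.12, and Gpr35, which responds to tryptophan metabolites, by -0.99 ± 0.14. Of the lysophosphatidylserine receptors, P2ry10b and P2ry10 were lower in cDC1 by -1.65 ± 0.18 and -1.09 ± 0.17 on the log2 scale. Gpr34 averaged 77.8 and 73.3 CPM and did not pass (edgeR adjusted p = 0.607). P2ry10 and P2ry10b share 113 stretches of 50 bases, 3.79% and 3.27% of those in their transcripts. P2ry10b was at a far lower level than P2ry10 in every group, so a small share of P2ry10 reads would weigh more in P2ry10b. Whether reads of P2ry10 were counted as P2ry10b was not tested.

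Proton-sensing receptors went both ways. Gpr4 had 91.6 and 79.3 CPM in WT cDC1 against 19.2 and 29.3 CPM in WT cDC2, a log2 difference of 1.81 ± 0.28 (edgeR adjusted p = 0.000293). Gpr65 had 289 and 337 CPM against 148 and 158 CPM, a log2 difference of 1.03 ± 0.12 (edgeR adjusted p = 3.67e-06). Gpr132 was lower in cDC1 by -0.57 ± 0.11 at 247 and 249 CPM against 350 and 386 CPM.

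The largest gaps belonged to orphans. Gpr33 (chr12:52023003-52028063, minus strand), a receptor that is a pseudogene in most people, had 17.8 and 15.0 CPM in WT cDC1 and no count in either WT cDC2 library. Against 3 counts over the group, which is 0.0415 CPM, it was at least 395-fold higher in cDC1 (edgeR adjusted p = 1.29e-09). Gpr141b (chr13:19727426-19732951, minus strand) had 455 and 421 CPM in cDC1 and 0.58 and 0.97 CPM in cDC2, a log2 difference of 9.10 ± 0.21 (edgeR adjusted p = 1.99e-13). Both were thus nearly confined to cDC1 among WT cells.

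Gpr171, an orphan studied mainly in T cells and the brain, had 348 and 640 CPM in WT cDC1 and 26.3 and 42.8 CPM in WT cDC2. Its replicates were far apart, but the groups did not overlap and differed by 3.83 ± 0.48 on the log2 scale (edgeR adjusted p = 0.000174). Gpr176, known from the circadian clock of the brain, was higher by 3.68 ± 0.83 at a low level, 0.904 and 1.9 CPM against 0 and 0.194 CPM, and it shares exon sequence with a predicted gene on its strand. Gpr157 was higher by 1.05 ± 0.29.

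On the cDC2 side, Gpr162 had 1 count over the WT cDC1 libraries and 232 over the WT cDC2 libraries, a 180-fold ratio with an exact 95% counting interval of 32 to 7134 (edgeR adjusted p = 9.15e-07). Gpr83, a neuropeptide receptor also found on regulatory T cells, had 0.197 and 0.72 CPM in cDC1 and 7.71 and 5.82 CPM in cDC2, a log2 difference of -3.83 ± 0.52 (edgeR adjusted p = 2.95e-05). Gpr141 had 53.5 and 45.9 CPM against 171 and 171 CPM, a log2 difference of -1.78 ± 0.12 (edgeR adjusted p = 8.99e-09). Gpr160 and Gpr82 were lower by -1.58 ± 0.37 and -1.19 ± 0.18. Gpr182 had 0.903 and 7.35 CPM in the WT cDC2 libraries, 0.0786 and 0.0327 CPM in WT cDC1, and did not pass (edgeR adjusted p = 0.07).

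Of the intracellular proteins, Gpr155, a cholesterol sensor of the lysosome, was lower in cDC1 by -1.79 ± 0.20 and Gpr107 by -0.31 ± 0.10, and Gpr137b was higher by 0.58 ± 0.21. The T cell markers, 7 genes, summed to 13.7 to 17.9 CPM in WT cDC1 and 33.8 to 45.5 CPM in WT cDC2, and the 6 NK cell markers to 154 to 167 CPM and 68.9 to 78.5 CPM. The 8 monocyte and macrophage markers summed to 151 to 185 CPM in WT cDC1 and 601 to 630 CPM in WT cDC2. Whether such cells had a part in the receptor differences was not tested. Of the 26 calls, 22 held in every alternative fit. Gpr107, Gpr137b, Gpr157 and Gpr55 lost theirs when single libraries were left out, Gpr107 with any 1 of the 4, Gpr137b with any but WT cDC2 replicate 2, and Gpr157 and Gpr55 without WT cDC1 replicate 1 or WT cDC2 replicate 2.

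Several members with opposite patterns lie side by side in the genome (GENCODE M21, GRCm38). Gpr141b and Gpr141 stand 16.7 kb apart on chromosome 13 with log2 differences of 9.10 and -1.78, and they share no stretch of 50 bases. On chromosome 3, Gpr171 (3.83), P2ry14 (6.45), P2ry13 (-4.15) and P2ry12 (-0.91, not past the threshold) follow each other with gaps of 12.0, 54.3 and 5.39 kb, all on the minus strand. The first pair was higher in cDC1 and P2ry13 was lower. On chromosome 7, P2ry6 (1.19) and P2ry2 (-4.67) are 21.9 kb apart. Neighbours with the same direction were Gpr18 (-1.07) and Gpr183 (-3.69), 36.8 kb apart on chromosome 14, and P2ry10 (-1.09) and P2ry10b (-1.65), 44.0 kb apart on the X chromosome.

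In cDC1 with the +32H allele, some receptors typical of cDC2 were higher than in WT cDC1 and others were not. In H/+ cDC1, 4 of the 47 tested members were higher than in WT cDC1 and none lower, where 1.47% of all genes passed, 1.16% higher and 0.312% lower. In H/H cDC1 of experiment 1, 5 were higher and 1 lower, where 4.17% of all genes passed, 2.7% higher and 1.47% lower. In experiment 2, 6 of the 40 tested were higher and 3 lower, where 6.32% of all genes passed, 4.37% higher and 1.94% lower. The medians over the members were 0.04, 0.01 and 0.13 on the log2 scale, and 0.00 over all genes in each. The H/+ and H/H comparisons of experiment 1 share the WT libraries, and experiment 2 has its own. Gpr107, Gpr132, Gpr155, Gpr160, Gpr18, Gpr35, Gpr83 and P2ry13 were also lower in WT cDC1 than in WT cDC2. They passed in H/H cDC1 in neither experiment.

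Gpr183 had 27.9 and 26.8 CPM in WT, 63.3 and 49.1 CPM in H/+ and 125 and 118 CPM in H/H cDC1 of experiment 1. The 3 genotypes did not overlap, and each step passed, by 1.04 ± 0.14 (edgeR adjusted p = 0.00114) from WT to H/+ and by 1.11 ± 0.13 (edgeR adjusted p = 0.00185) from H/+ to H/H. Gpr183 was the only 1 of the 47 members that passed between H/H and H/+ cDC1, where 0.281% of all genes passed, 0.218% higher and 0.0624% lower. In experiment 2 it had 23.9 and 20.9 CPM in WT and 97.2 and 96.2 CPM in H/H cDC1, a log2 difference of 2.11 ± 0.15 (edgeR adjusted p = 1.54e-07), beside 2.15 ± 0.14 for H/H against WT in experiment 1. The H/H level still lay below the 320 to 402 CPM of the H/H cDC2 libraries.

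Gpr141 had 53.5 and 45.9 CPM in WT, 100 and 124 CPM in H/+ and 165 and 157 CPM in H/H cDC1, again without overlap. It rose by 1.18 ± 0.12 in H/+ (edgeR adjusted p = 0.00014) and by 1.70 ± 0.12 in H/H (edgeR adjusted p = 5.41e-07), and the step from H/+ to H/H was 0.52 ± 0.11 and did not pass (edgeR adjusted p = 0.0802). In experiment 2 it went from 37.0 and 38.7 CPM to 151 and 141 CPM, a log2 difference of 1.95 ± 0.13 (edgeR adjusted p = 4.65e-08). In H/H cDC1 Gpr141 thus lay just below the 171 to 195 CPM of the cDC2 libraries of the 3 genotypes.

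P2ry10b rose by 1.32 ± 0.18 in H/+ and 1.42 ± 0.18 in H/H cDC1 of experiment 1, from 2.4 and 2.95 CPM to 7.04 and 6.37 CPM and to 6.84 and 7.54 CPM. In experiment 2 it averaged 2.94 and 5.31 CPM and did not pass (0.85 ± 0.31, edgeR adjusted p = 0.139). Gpr82 rose by 0.82 ± 0.18 in H/+, and by 1.09 ± 0.18 and 1.06 ± 0.20 in H/H cDC1 of experiments 1 and 2. Gpr162 passed at a low level in both experiments with edgeR and in neither with DESeq2 (adjusted p = 0.0796 and 0.0542). It went from 1 count to 17 over the libraries of experiment 1, a 17.4-fold ratio with an exact 95% counting interval of 2.73 to 728, and from 0.285 and 0.14 CPM to 1.02 and 0.625 CPM in experiment 2 (1.91 ± 0.52, edgeR adjusted p = 0.0359). Gpr55 rose by 1.53 ± 0.32 and P2ry10 by 0.50 ± 0.14 in experiment 2, and neither passed in experiment 1.

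Of the receptors higher in WT cDC1 than in WT cDC2, Gpr141b fell in H/H cDC1 of both experiments and Gpr33 and Gpr171 fell in experiment 2 alone. Gpr141b had 455 and 421 CPM in WT and 325 and 256 CPM in H/H cDC1 of experiment 1, and 330 and 394 CPM against 226 and 211 CPM in experiment 2. It fell by 0.59 ± 0.14 (edgeR adjusted p = 0.0198) and by 0.73 ± 0.12 on the log2 scale (edgeR adjusted p = 0.00116). Gpr33 averaged 16.4, 13.5 and 9.86 CPM in WT, H/+ and H/H cDC1 of experiment 1 and did not pass in H/+ or H/H (-0.73 ± 0.25 in H/H, edgeR adjusted p = 0.139), though the H/H difference passed with DESeq2, without the filter on low counts and when only the groups compared were fitted. In experiment 2 it had 11.6 and 8.56 CPM in WT and 3.99 and 5.4 CPM in H/H cDC1, a fall that passed (-1.10 ± 0.29, edgeR adjusted p = 0.0373). Gpr171 fell by 0.85 ± 0.21 in experiment 2 and was at -0.74 ± 0.43 in experiment 1 (edgeR adjusted p = 0.496). P2ry14 showed no passing difference, at -0.14 ± 0.18 and -0.01 ± 0.11. In H/+ against WT cDC1, Gpr141b was at -0.29 ± 0.14, Gpr33 at -0.29 ± 0.25 and P2ry14 at 0.10 ± 0.18. In H/H against H/+ cDC1 they were at -0.30 ± 0.14, -0.45 ± 0.25 and -0.25 ± 0.18, and none of these passed (edgeR adjusted p of 0.331 to 0.853). Of the 39 members at 1 CPM or more that were tested in both experiments, 5 passed in both, all in 1 direction, and these were Gpr183, Gpr141, Gpr162, Gpr82 and Gpr141b. The share of all genes that passed in both was not counted. Gpr183 and Gpr141 held in every alternative of both experiments. In experiment 1 Gpr162 kept its call in 4 of 8 alternatives, and lost it with DESeq2 and without H/H replicate 1 or either WT library (adjusted p up to 0.541). Gpr141b lost its call in experiment 1 without H/H replicate 2 or either WT library, and Gpr82 its call in H/+ without H/+ replicate 2 or either WT library. In experiment 2 Gpr33, Gpr162, Gpr171 and P2ry10 each kept their call in only 1 of the 4 fits without 1 library, Gpr55 lost it without WT replicate 2 and Gpr82 without H/H replicate 1.

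In cDC2 with the allele, 2 of the cDC1 receptors were higher than in WT cDC2. The 10 cDC1 markers summed to 472 to 480 CPM in WT, 495 CPM in H/+ and 552 to 597 CPM in H/H cDC2. Whether cDC1 or hybrid cells among the sorted cDC2 had a part was not tested. P2ry14 had 2.55 and 3.86 CPM in WT, 9.1 and 11.4 CPM in H/+ and 12.1 and 19.5 CPM in H/H cDC2. WT lay below both others, by 1.66 ± 0.22 for H/+ (edgeR adjusted p = 0.0227) and by 2.29 ± 0.22 for H/H (edgeR adjusted p = 0.00033). Gpr141b had 0.58 and 0.97 CPM in WT and 3.87 and 3.96 CPM in H/H cDC2, a log2 difference of 2.29 ± 0.21 (edgeR adjusted p = 9.37e-05), and 1.96 and 1.59 CPM in H/+ (1.15 ± 0.23, edgeR adjusted p = 0.232, past the threshold with DESeq2 and without the filter on low counts). P2ry14 was 1 of 4 genes in all that passed in H/+ cDC2 (0.0249% of genes tested), and the pair was among 13 in H/H cDC2 (0.0811%, with 0.0686% higher and 0.0125% lower). The call of P2ry14 in H/+ cDC2 was lost without H/+ cDC2 replicate 2 or WT cDC2 replicate 1. When only the 2 groups compared were fitted, P2ry14 passed in neither H/+ nor H/H cDC2 (edgeR adjusted p = 0.464 and 0.0844). Gpr33 had no count in WT cDC2, 2 counts in H/+ and 9 in H/H cDC2, and did not pass (edgeR adjusted p = 0.44 for H/H). Gpr83 averaged 6.76 CPM in WT and 1.58 CPM in H/H cDC2 and did not pass either (-2.09 ± 0.46, edgeR adjusted p = 0.22). P2ry14 and Gpr141b in H/H cDC2 stayed far below their level in any cDC1 library.

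The H/H effect differed between the cell types for 7 of the 47 members, 4 more positive and 3 more negative in cDC1, where 1.9% of all genes passed, 1.4% positive and 0.505% negative. The difference of the effects was 2.12 ± 0.19 for Gpr183 (edgeR adjusted p = 1.51e-05) and 1.61 ± 0.16 for Gpr141 (edgeR adjusted p = 3.8e-05). For Gpr141b it was -2.88 ± 0.25 (edgeR adjusted p = 1.37e-05) and for P2ry14 -2.43 ± 0.29 (edgeR adjusted p = 0.000401). These comparisons use the same libraries as the effects above. Thus Gpr183 and Gpr141 rose in cDC1 and not in cDC2, where their differences were 0.03 and 0.09 (edgeR adjusted p = 1 for both), and P2ry14 and Gpr141b rose in cDC2 alone.

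**Figure D3:**
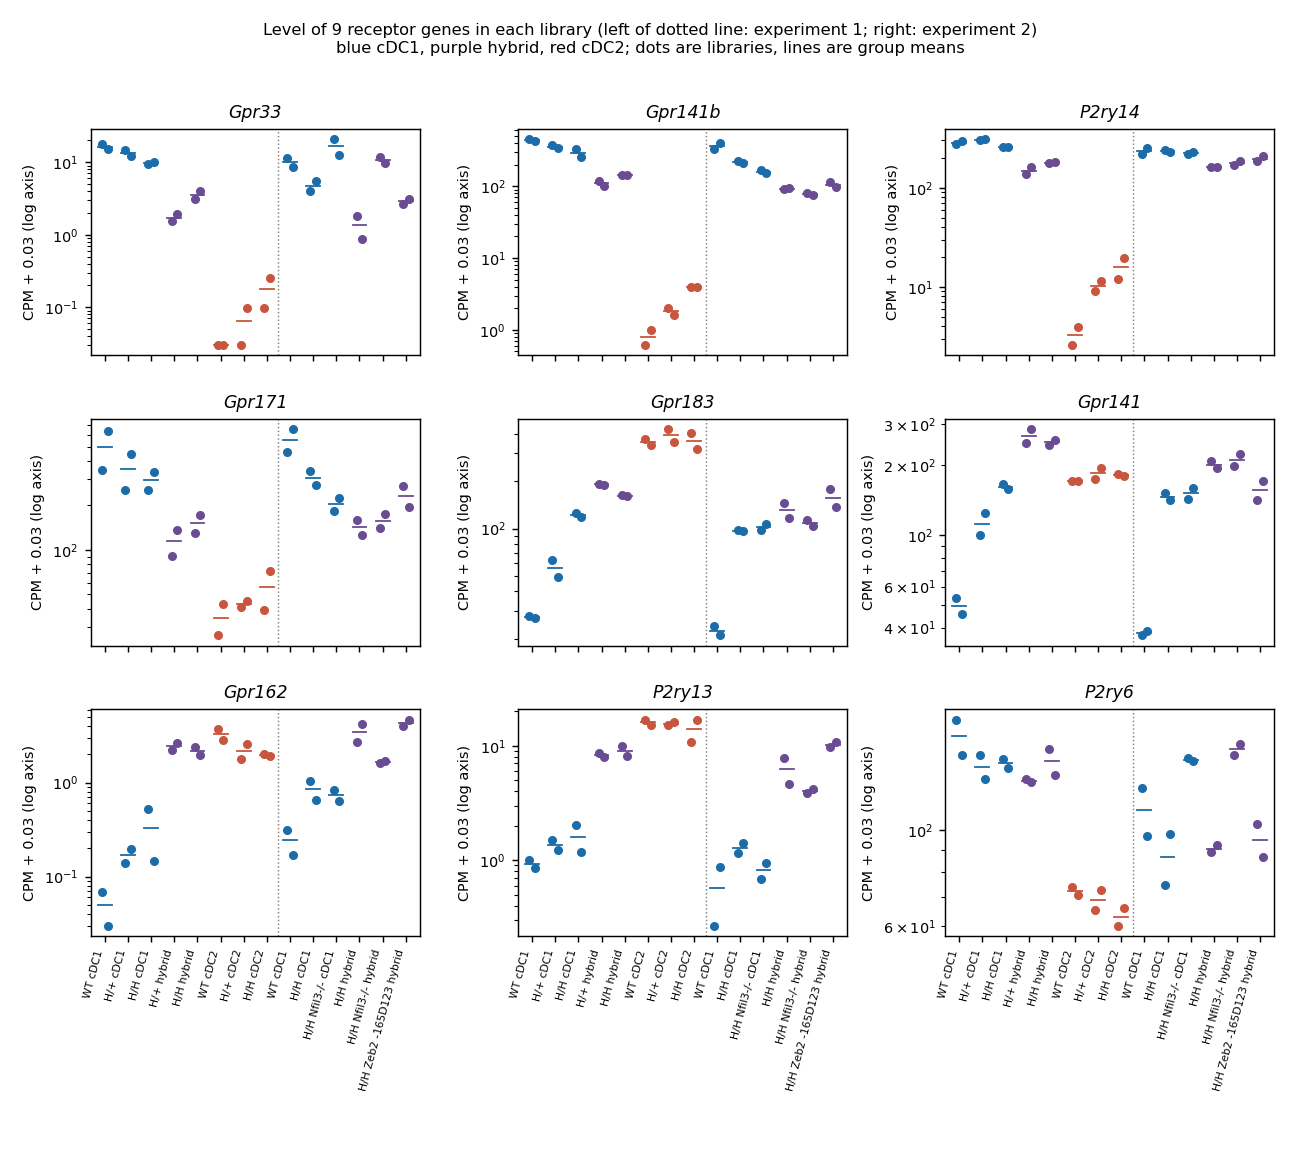
Level of 9 receptor genes in each library as CPM + 0.03 on a log axis, with 2 dots per group and a line at their mean, for cDC1 (blue), hybrid (purple) and cDC2 (red) groups of experiment 1 (left of the dotted line) and experiment 2 (right). Gpr183 and Gpr141 step up from WT to H/H cDC1, P2ry14 and Gpr141b step up from WT to H/H cDC2, and Gpr33 is higher in both Nfil3-/- groups than in their H/H controls.

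As bulk populations, hybrid cells held RNA of receptors of both types. Whether single cells held both was not measured. In experiment 1 the 8 monocyte and macrophage markers summed to 495 to 516 CPM in H/H hybrid cells and 171 to 196 CPM in H/H cDC1. Whether monocytes or macrophages had a part in the hybrid differences was not tested. Against cDC1 of the same mice, 12 of 47 members were higher and 5 lower in H/+ hybrid cells, where 16.5% of all genes passed, 9.77% higher and 6.68% lower. In H/H hybrid cells 5 were higher and 2 lower, where 7.85% passed, 5.24% higher and 2.61% lower. In experiment 2, 7 of 40 were higher and 6 lower in H/H hybrid cells, where 12.5% passed, 7.24% higher and 5.25% lower. Against cDC2, 10 of 47 were higher and 8 lower in H/+ (19.0% of all genes passed, 10.3% higher and 8.71% lower), and 13 higher and 8 lower in H/H hybrid cells (25.4% passed, 12.9% higher and 12.5% lower). The medians against cDC1 were 0.27, 0.31 and 0.21 over the members and 0.01 over all genes in each. The comparisons with cDC1 and cDC2 of a genotype share the hybrid libraries.

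Gpr141b, P2ry14 and Gpr33 lay between cDC1 and cDC2 in the hybrid cells of both genotypes. Other receptors higher in WT cDC1 did not all do so: P2ry6 averaged 144 CPM in H/H hybrid cells and 143 CPM in H/H cDC1 (log2 difference 0.01), and the mean of Gpr137b was above both neighbours. Gpr141b had 119 and 99.8 CPM in H/+ hybrid cells, 370 and 344 CPM in H/+ cDC1 and 1.96 and 1.59 CPM in H/+ cDC2, so that the 3 did not overlap. Its log2 difference was -1.71 ± 0.14 from cDC1 (edgeR adjusted p = 5.14e-07) and 5.94 ± 0.18 from cDC2 (edgeR adjusted p = 2.11e-11). In H/H mice the hybrid libraries had 143 and 142 CPM, -1.03 ± 0.14 from cDC1 and 5.18 ± 0.17 from cDC2. In experiment 2 they had 90.5 and 94.7 CPM, -1.24 ± 0.13 from cDC1 (edgeR adjusted p = 6.65e-06).

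P2ry14 had 138 and 160 CPM in H/+ and 178 and 181 CPM in H/H hybrid cells in experiment 1. It lay below H/+ cDC1 by -1.03 ± 0.19 (edgeR adjusted p = 0.00163) and above cDC2 by 3.86 ± 0.21 in H/+ and 3.51 ± 0.21 in H/H mice. Against H/H cDC1 it was at -0.52 ± 0.19 in experiment 1, which did not pass (edgeR adjusted p = 0.119) but did with DESeq2, without the filter, with the replicate block and when only the groups compared were fitted (adjusted p of 0.000515 to 0.0324). It was at -0.54 ± 0.11 in experiment 2, which passed (edgeR adjusted p = 0.00528). Gpr33 had 1.51 and 1.88 CPM in H/+ hybrid cells against 14.6 and 12.3 CPM in H/+ cDC1 (-2.98 ± 0.29, edgeR adjusted p = 4.94e-06), and 3.06 and 4.01 CPM against 9.57 and 10.2 CPM in H/H mice (-1.48 ± 0.26, edgeR adjusted p = 0.00274). Over 2 counts in H/+ cDC2 the ratio in H/+ hybrid cells was 49.9-fold, with an exact 95% counting interval of 13.4 to 419, and Gpr33 was 4.55 ± 0.40 above cDC2 in H/H mice. Of the 3 genes, Gpr33 was thus furthest below cDC1 in hybrid cells.

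P2ry13, Gpr162 and Gpr83, all higher in WT cDC2, were higher in hybrid cells than in cDC1 in both genotypes, and other receptors of cDC2 did not all follow. P2ry13 had 8.6 and 8.02 CPM in H/+ and 9.82 and 8.16 CPM in H/H hybrid cells, 2.64 ± 0.26 and 2.50 ± 0.26 above cDC1 on the log2 scale, and 2.29 ± 0.36 above H/H cDC1 in experiment 2, and in H/+ mice it stayed -0.91 ± 0.22 from cDC2. Gpr162 was 4.07 ± 0.54, 2.79 ± 0.48 and 2.05 ± 0.38 above cDC1 in these 3 comparisons, at 1.95 to 4.17 CPM in the hybrid libraries. Gpr83 was 4.44 ± 0.64, 2.65 ± 0.65 and 3.68 ± 0.83 above cDC1, the last resting on 3 counts over the H/H cDC1 libraries of experiment 2. Gpr183 had 191 and 190 CPM in H/+ hybrid cells, 1.76 ± 0.14 above cDC1 and -1.03 ± 0.13 from cDC2. Since H/H cDC1 had more Gpr183, the hybrid cells of these mice, at 163 and 161 CPM, were 0.42 ± 0.13 above it and did not pass (edgeR adjusted p = 0.0699), and were -1.16 ± 0.13 from cDC2. P2ry10 (-0.09), Gpr18 (0.08), P2ry10b (0.16) and Gpr35 (0.26) did not pass against H/H cDC1 in experiment 1 either, and Gpr160 passed in none of the 3 comparisons with cDC1.

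Gpr141 stood above both neighbours in hybrid cells of both genotypes. It had 250 and 285 CPM in H/+ hybrid cells against 100 and 124 CPM in cDC1 and 175 and 195 CPM in cDC2, differences of 1.25 ± 0.11 (edgeR adjusted p = 1.66e-06) and 0.53 ± 0.11 (edgeR adjusted p = 0.00383). In H/H mice it had 244 and 257 CPM, 0.64 ± 0.11 above cDC1 (edgeR adjusted p = 0.00215) and 0.46 ± 0.11 above cDC2 (edgeR adjusted p = 0.00672), and in experiment 2 it was 0.46 ± 0.12 above cDC1 (edgeR adjusted p = 0.0201). Gpr31b did the same in H/+ mice, at 8.78 and 11.1 CPM against 3.25 and 5.49 CPM in cDC1 (1.18 ± 0.27, edgeR adjusted p = 0.00576) and 2.44 and 1.93 CPM in cDC2 (2.18 ± 0.28, edgeR adjusted p = 5.38e-05). In H/H hybrid cells it was 2.16 ± 0.28 above cDC2 and 1.25 ± 0.27 above cDC1 in experiment 2, while 0.79 ± 0.26 above cDC1 in experiment 1 did not pass (edgeR adjusted p = 0.086). The calls of Gpr141 against cDC2 were lost without hybrid replicate 2 in each genotype, and its call in experiment 2 without either hybrid library or H/H cDC1 replicate 2. Gpr31b lost its call against H/+ cDC1 without H/+ cDC1 replicate 1 or H/+ hybrid replicate 2.

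**Figure D4:**
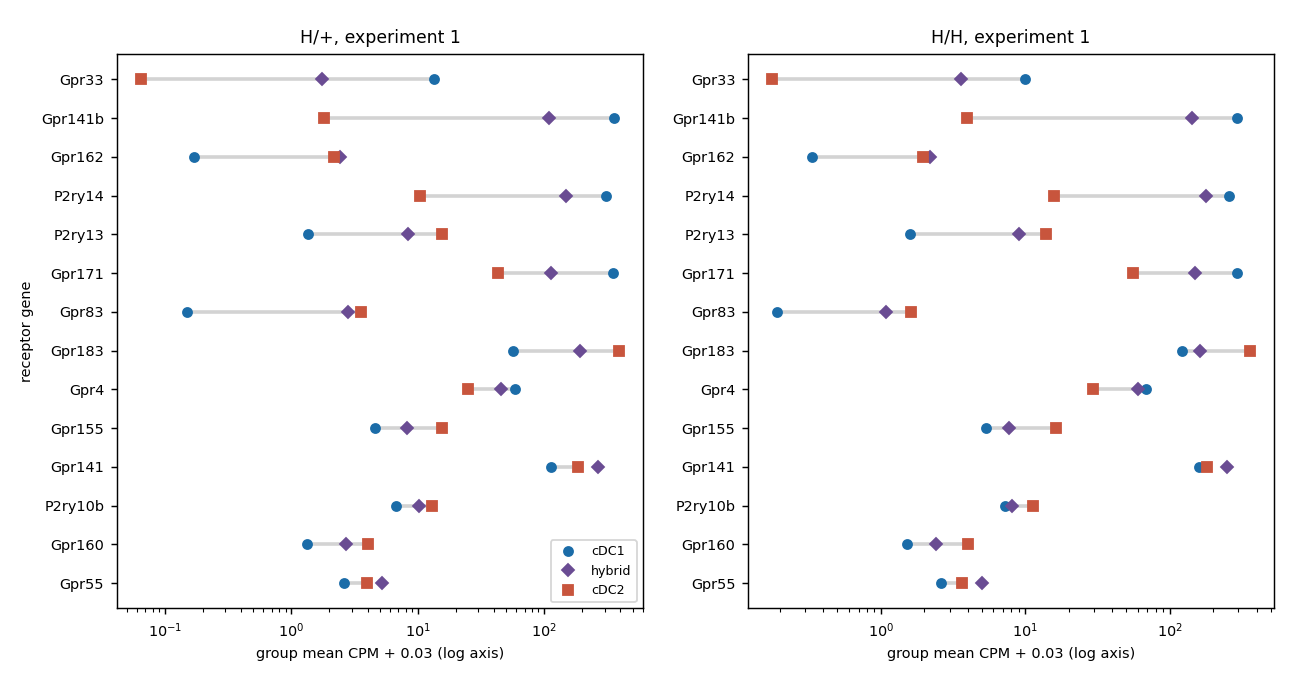
Group mean CPM + 0.03 on a log axis in cDC1 (blue circle), hybrid cells (purple diamond) and cDC2 (red square) of H/+ (left) and H/H mice (right) in experiment 1, for 14 of the genes with the largest WT cDC1 to WT cDC2 difference. Most diamonds lie between the other marks, and Gpr141, Gpr55 and, by a small margin, Gpr162 lie above both.

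By the order of the means alone, 27 of the 40 genes lay between cDC1 and cDC2 in H/+ hybrid cells, 10 above both and 3 below both. In H/H hybrid cells 24 lay between, 15 above and 1 below. The share of all genes in each position was not counted, so these counts say nothing particular about receptors. They include genes with hardly any gap, such as Gpr137 at 15.2, 15.7 and 15.3 CPM in H/+ cDC1, hybrid cells and cDC2. Among other members, Gpr34 and P2ry6 were higher in hybrid cells than in cDC2, Gpr34 by 0.70 ± 0.12 in H/+ and 0.80 ± 0.12 in H/H mice, and P2ry6 by 0.92 ± 0.11 and 1.19 ± 0.11. Gpr152 was higher than in cDC2 by 1.73 ± 0.50 and 2.32 ± 0.51 and Gpr137b by 0.95 ± 0.21 and 0.88 ± 0.21. Gpr176 was at least 9.12-fold and at least 14.3-fold higher than in H/+ and H/H cDC2, which had no counts, with 3 counts over the group as the limit. Lower than in cDC2 were Gpr155 by -0.91 ± 0.19 and -1.08 ± 0.19, P2ry10 by -0.58 ± 0.17 and -0.84 ± 0.17, Gpr18 by -0.53 ± 0.11 and -0.63 ± 0.11, and Gpr35 by -0.54 ± 0.14 and -0.57 ± 0.14. H/H hybrid cells also exceeded H/H cDC2 in Gpr171 (1.44 ± 0.44), Gpr4 (1.05 ± 0.28) and Gpr65 (0.54 ± 0.12), and had less P2ry10b (-0.49 ± 0.16).

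Against cDC1, H/+ hybrid cells had less Gpr171 (-1.63 ± 0.44) and Gpr65 (-0.60 ± 0.12). They had more Gpr155 (0.85 ± 0.20), Gpr82 (0.65 ± 0.18), P2ry10b (0.59 ± 0.16), Gpr35 (0.49 ± 0.14), Gpr18 (0.49 ± 0.11) and Gpr132 (0.34 ± 0.11). H/H hybrid cells of experiment 1 had more Gpr82 (0.67 ± 0.18). H/H hybrid cells of experiment 2 had less Gpr171 (-1.10 ± 0.22), Gpr65 (-0.54 ± 0.13) and Gpr157 (-0.52 ± 0.15) than cDC1 and more Gpr182 (2.26 ± 0.67) and Gpr35 (0.50 ± 0.11). Of 39 members tested in both experiments, 6 passed between H/H hybrid cells and H/H cDC1 in both, all in 1 direction, namely Gpr141b and Gpr33 (lower) and Gpr141, Gpr162, Gpr83 and P2ry13 (higher). The share of all genes that did so was not counted. Gpr141b, Gpr162 and P2ry13 held in every alternative of both experiments. Gpr33 lost its call without H/H hybrid replicate 1 in experiment 1 and without H/H hybrid replicate 2 in experiment 2, and Gpr83 in 3 and 2 of the 4 fits without 1 library. Of the other hybrid calls, those of Gpr132, Gpr171 and P2ry10b against H/+ cDC1, of Gpr152 against H/+ cDC2, of Gpr171, Gpr4 and P2ry10b against H/H cDC2, and of Gpr157 and Gpr182 in experiment 2 were each lost in 4 to 6 alternatives. Between H/H and H/+ hybrid cells edgeR passed 0 of 47 members (0.131% of all genes), 5 had an unadjusted p below 0.05, and DESeq2 passed 0 as well. The fit without the filter on low counts passed 3. Gpr33 had the highest of the 3 leading differences, 1.05 ± 0.29 (edgeR adjusted p = 0.401), beside 0.38 ± 0.14 for Gpr141b and 0.27 ± 0.19 for P2ry14. It was among those that passed without the filter, where Gpr33 had an edgeR adjusted p of 0.0119.

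Loss of Nfil3, a basic leucine zipper repressor needed for cDC1 development, went with more Gpr33 on the H/H background. In cDC1, 4 of 40 members were higher and 1 lower in H/H Nfil3-/- than in H/H mice, where 3.03% of all genes passed, 1.34% higher and 1.69% lower. In hybrid cells 4 were higher and none lower, where 3.73% passed, 1.93% higher and 1.8% lower. The medians were 0.07 and 0.08 over the members and -0.02 and -0.03 over all genes. The same 4 of the 39 members at 1 CPM or more passed in both cell types, all upwards, and the 2 comparisons share no library. How many of all genes passed in both cell types was not counted.

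Gpr33 had 3.99 and 5.4 CPM in H/H cDC1 and 20.9 and 12.4 CPM in H/H Nfil3-/- cDC1, a log2 difference of 1.82 ± 0.29 (edgeR adjusted p = 0.00272). In hybrid cells it had 1.79 and 0.846 CPM in H/H and 11.7 and 9.62 CPM in H/H Nfil3-/- mice, a log2 difference of 3.0 ± 0.35 (edgeR adjusted p = 0.000138). The groups did not overlap in either cell type, and the Nfil3-/- hybrid libraries were at the level of WT cDC1 of the same experiment, 11.6 and 8.56 CPM. The 2 effects differed by 1.18 ± 0.46, which did not pass (edgeR adjusted p = 1). Gpr33 held in every alternative in both cell types, with log2 differences of 1.40 to 2.16 in cDC1 and 2.57 to 3.67 in hybrid cells.

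Gpr146, an orphan linked to cholesterol metabolism in the liver, had 4.92 and 3.66 CPM in H/H cDC1 and 6.98 and 11.4 CPM without Nfil3, and 4.89 and 4.23 CPM and 8.38 and 10.9 CPM in hybrid cells. It rose by 1.11 ± 0.26 (edgeR adjusted p = 0.0305) and 1.08 ± 0.27 (edgeR adjusted p = 0.0319). P2ry6 rose by 0.75 ± 0.15 in cDC1, from 74.8 and 98 CPM to 147 and 144 CPM, and by 0.76 ± 0.15 in hybrid cells, from 88.8 and 92.4 CPM to 149 and 158 CPM. Gpr35 rose by 0.58 ± 0.11 in cDC1, from 72.4 and 70.9 CPM to 112 and 103 CPM, and by 0.48 ± 0.11 in hybrid cells. None of these 3 overlapped between the groups. P2ry10 fell by 0.56 ± 0.14 in cDC1 (edgeR adjusted p = 0.0399), a call lost in 7 of 10 alternatives, among them the replicate block (adjusted p = 0.0588), the term for Xist and all 4 fits without 1 library, and was at -0.33 ± 0.14 in hybrid cells (edgeR adjusted p = 0.194). Gpr141b was at -0.45 ± 0.12 in cDC1 and -0.25 ± 0.12 in hybrid cells and P2ry14 at -0.07 ± 0.11 and 0.14 ± 0.11, none past the threshold with edgeR. With DESeq2, Gpr141b passed in cDC1 (adjusted p = 0.0219).

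**Figure D5:**
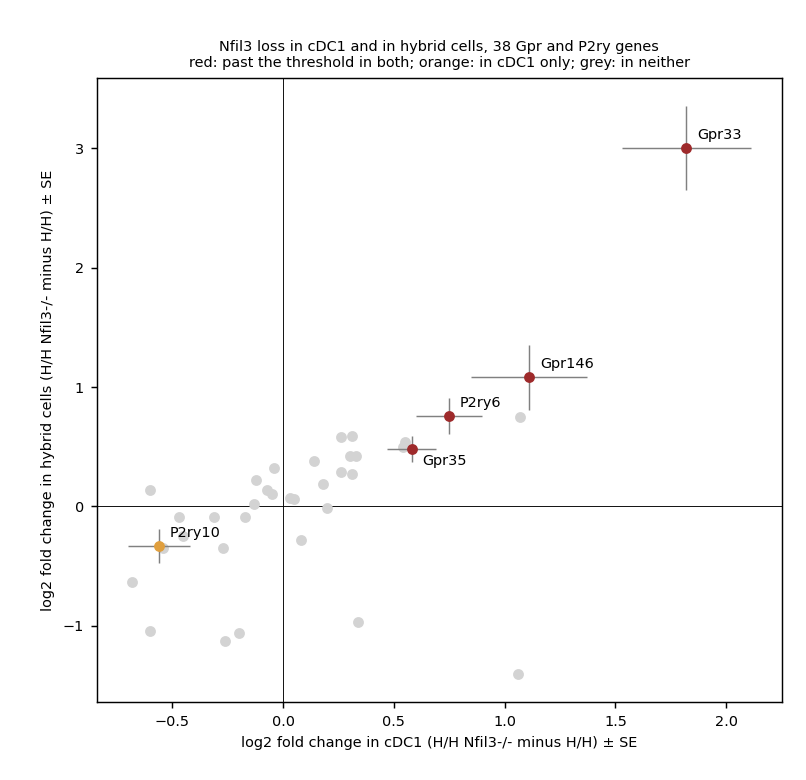
Log2 fold change (H/H Nfil3-/- minus H/H) in cDC1 (x axis) and hybrid cells (y axis) for 38 genes, with SE bars for those past the threshold in both (red), or in cDC1 alone (orange). Gpr33 lies far from the other genes at 1.82 and 3.0, with Gpr146, P2ry6 and Gpr35 next among those past the threshold.

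Markers of other cells moved with the same groups. The 7 neutrophil markers, such as S100a8, summed to 17.4 to 19.7 CPM in H/H Nfil3-/- cDC1 and 34.7 to 61.7 CPM in H/H Nfil3-/- hybrid cells, against 0.313 to 0.461 CPM and 3.69 to 4.23 CPM in the H/H groups. In H/H cDC1, Camp, Ly6g and Retnlg were at 0, in H/H hybrid cells Ly6g was at 0. The 7 B cell markers summed to 744 to 935 CPM in Nfil3-/- hybrid cells and 538 to 637 CPM in H/H hybrid cells, and to 643 to 655 CPM and 530 to 626 CPM in the matching cDC1 groups. Whether these cells had a part in the differences of Gpr33, Gpr146, P2ry6 or Gpr35 was not tested. Gpr146 and Gpr35 in hybrid cells lost their calls with any 1 of the 4 libraries left out or with a term for libraries that hold Xist, and P2ry6 lost its call in 3 of these 4 fits in each cell type, without H/H replicate 1 and without Nfil3-/- replicate 2 in both. In cDC1 the call of Gpr146 was lost in 5 of 10 alternatives, with the term for Xist, with only the groups compared, and without Nfil3-/- replicate 2 or either H/H library. That of Gpr35 in cDC1 was lost with only the groups compared and without Nfil3-/- replicate 1.

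With the Zeb2 -165D123 allele, Gpr157 and Gpr4 were higher in hybrid cells on the H/H background. In H/H Zeb2 -165D123 hybrid cells 2 of 40 members were higher than in H/H hybrid cells and none lower, where 4.03% of all genes passed, 2.23% higher and 1.79% lower, a share near that of the members. DESeq2 and the fit with a term for Xist each passed 5 members, and the fit without the filter 6. The median was 0.20 over the members and 0.00 over all genes. Gpr157 had 15.0 and 14.1 CPM in H/H and 30.4 and 33.1 CPM in H/H Zeb2 -165D123 hybrid cells, a log2 difference of 1.13 ± 0.15 (edgeR adjusted p = 0.000405) without overlap. Gpr4 had 44.4 and 55.8 CPM against 83.9 and 70.6 CPM (0.62 ± 0.15, edgeR adjusted p = 0.0294), and this call was lost without H/H replicate 1 or either Zeb2 -165D123 library. Gpr33 averaged 1.32 and 2.86 CPM and did not pass (1.11 ± 0.38, edgeR adjusted p = 0.135), but it passed without the filter on low counts (edgeR adjusted p = 0.0122). Gpr141b at 0.19 ± 0.12 and P2ry14 at 0.28 ± 0.11 did not pass. Gpr157 and Gpr4 were higher in WT cDC1 than in WT cDC2.

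Genes that supply ligands for these receptors or carry their signals differed between WT cDC1 and WT cDC2 in part. In this comparison 44.0% of all genes passed, 20.5% higher and 23.4% lower. Of 12 tested genes of nucleotide supply and breakdown, 5 were higher and 2 lower in cDC1. Enpp4, an ectonucleotide hydrolase, averaged 70.8 CPM in cDC1 and 9.28 CPM in cDC2 (log2 difference 2.94, edgeR adjusted p = 5.61e-10), Entpd5 and Adk differed by 1.49 and 1.45, and the ATP channel gene Panx1 by -2.00. Of 6 adenosine and P2X receptors, 2 were higher and 3 lower, with Adora3 at 43.6 and 2.69 CPM (4.01, edgeR adjusted p = 7.19e-09), Adora2b at -1.82 and Adora2a at -1.26. Of 4 oxysterol genes, Hsd3b7, which breaks down the GPR183 ligand, was higher by 2.03 in cDC1, the cell with less Gpr183, and Cyp7b1, which makes it, was lower by -3.59. Abhd12, which degrades lysophosphatidylserine, was lower by -1.23, 1 of 3 tested genes of that supply.

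On the signalling side, 3 of 9 G alpha subunits were higher in cDC1 and none lower, a smaller share than the 44.0% of all genes that passed, and Gna15 averaged 44.1 and 3.86 CPM (3.51, edgeR adjusted p = 4.9e-10). Of 7 desensitisation genes, Arrb1 was higher by 1.69 and Grk3 lower by -1.64. Of 10 RGS genes, 2 were higher and 5 lower, with Rgs10 at 1.48, Rgs1 at -2.46, Rgs12 at -2.30 and Rgs3 at -1.49. With loss of Nfil3, Adora3 was higher, in cDC1 by 0.98 (edgeR adjusted p = 0.0235) and in hybrid cells by 1.57 (edgeR adjusted p = 0.00121). It was the 1 of 6 tested adenosine and P2X receptors that passed in each. Grk5 was lower, by -1.04 and -1.02, and Rgs1, by -0.73 and -0.62, in the same 2 cell types. Of 7 desensitisation genes 1 passed in cDC1 and 2 in hybrid cells, and of 9 RGS genes 1 in each. Of all genes 3.03% and 3.73% passed. Whether neutrophil or B cell transcripts had a part in these differences was not tested.

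Some members passed nowhere. Of the 40, 9 passed in no comparison, among them Gpr108, Gpr137, Gpr137c, Gpr180, Gpr19, Gpr85, Gpr89 and P2ry12. Gpr108 had group means of 64.8 to 96.4 CPM over the 14 groups and Gpr89 of 16.9 to 22.9 CPM. P2ry12 ranged more widely, from 0.732 to 4.07 CPM, as did Gpr180 from 1.36 to 7.83 CPM and Gpr137c from 0.452 to 1.45 CPM. Over all comparisons without interactions, the 132 calls of members at 1 CPM or more each had groups that did not overlap. The share over all called genes was not counted. With so few libraries per group a call leaves little room for overlap, so the lack of it adds little. With the interactions included, 76 of 139 calls held in every alternative. Exons of Gpr107, Gpr137, Gpr152, Gpr155, Gpr182, Gpr55, Gpr65, Gpr89 and P2ry12, among others, overlap genes on the opposite strand. The SMARTer Ultra Low kit named in the labels does not mark the strand, so reads of such pairs cannot be told apart, and no overlap was annotated for Gpr33, Gpr141b, Gpr141, P2ry14, Gpr171 or Gpr183.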

How the data were processed

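RNA of 28 sorted splenic dendritic cell libraries was sequenced in bulk, and the authors deposited 1 table of estimated counts per experiment, whose values were not whole in 10.8% and 10.2% of cells. The submitters' processing notes name bcl2fastq, DRAGEN and edgeR; the aligner settings, genome build and strand of counting were not given in the sources used here. Of 55774 lines per table, 287 repeats of a gene ID with the same counts were dropped, and counts were rounded to whole numbers. Groups came from the sample titles. Each experiment was fitted on its own with all its groups in edgeR 4.0.16 (R 4.3.3, limma 3.58.1; robust quasi-likelihood test, filterByExpr, TMM factors of 0.914 to 1.113 and 0.962 to 1.032), with p-values adjusted by Benjamini-Hochberg over all 16036 and 14504 genes tested and a threshold of 0.05. CPM are computed here from these counts and TMM factors. Log2 fold changes carry SE from the F statistic and use the default prior count of edgeR. A prior count of 2 served only the check of replicate deviations. The fits had 8 and 6 residual degrees of freedom and a median biological coefficient of variation of 0.15 and 0.138. A limit for no counts is 3 counts, which is 0.0728 to 0.134 CPM per library in experiment 1 and 0.134 to 0.172 in experiment 2; it and the 95% intervals cover counting error only, since reads carried no molecular identifiers.

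The design text calls replicates biological duplicates but does not say that equal numbers mark 1 animal. Genes at 1 CPM or more in a group mean were described; those past the threshold were named, the ones changed at least 2-fold first, and Gpr33, Gpr141b and P2ry14 in every comparison. Gpr83, Gpr182, P2ry12 and a few others below the threshold were named after their values were seen. Members, lists and tests were chosen with earlier results of these data known. Alternatives were DESeq2 1.42.0, RLE size factors, no filter, only the groups compared, a replicate block, a term for libraries that hold Xist in experiment 2 and leaving out each library. The fit was tested on simulated data. The values of 1 member are not reported here, and the figures leave it out. Positions are from GENCODE M21 (GRCm38), which held 82 of the 83 genes, and promoters from RefSeq GRCm38.p6. Tables and figures were made with Python 3.11.15, pandas 2.3.3 and matplotlib 3.10.9.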

Additional observations from a re-analysis of the deposited data

Results flagged for a closer look

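The effect of the H/H genotype differed between cDC1 and cDC2 for 7 genes, by a test of the difference itself (edgeR, adjusted p below 0.05), and each value is the log2 effect in cDC1 minus that in cDC2. It was 2.12 for Gpr183, 1.61 for Gpr141, 4.57 for Gpr162 and 1.00 for P2ry10b. It was -2.88 for Gpr141b, -2.43 for P2ry14 and -5.88 for Gpr33. The value of Gpr33 depends on the prior count, since WT cDC2 had no counts and H/H cDC2 had 9, and that of Gpr162 rests on 1 count in WT cDC1. Gpr183, Gpr141, Gpr141b and P2ry14 held in every alternative. Gpr162, Gpr33 and P2ry10b did not: they kept their call in 3, 2 and 0 of the 8 fits without 1 library.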

How the results depend on the processing

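No result changed direction past the threshold. Of 139 called results of genes at 1 CPM or more, 76 held in every alternative, 78 in every fit without 1 library and 112 in every other alternative. The counts of called members moved by over 1.5 times as follows, and the cause was not tested. When the fit held no other groups, the count was 2 for H/+ against WT cDC1, 0 for H/+ against WT cDC2, 14 for H/H hybrid against H/H cDC1 in experiment 1, and 2 and 9 for Nfil3 loss in cDC1 and hybrid cells. Without the filter on low counts it was 2 for H/H against H/+ cDC1, 2 and 4 for H/+ and H/H against WT cDC2, 13 for H/H hybrid against H/H cDC1 in experiment 1, 3 for H/H against H/+ hybrid, 8 for Nfil3 loss in cDC1 and 6 for the Zeb2 allele. With DESeq2 it was 2 for H/H against H/+ cDC1, 2 for H/+ against WT cDC2 and 5 for the Zeb2 allele. With a term for libraries that hold Xist it was 3 and 2 for Nfil3 loss in cDC1 and hybrid cells and 5 for the Zeb2 allele. RLE size factors moved no median by more than 0.016.

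Without 1 library at a time, the counts were 22 to 27 for WT cDC1 against WT cDC2, 3 to 4 and 4 to 5 for H/+ and H/H against WT cDC1, 1 to 2 for H/H against H/+ cDC1, and 0 to 1 and 2 for H/+ and H/H against WT cDC2. They were 10 to 14 and 11 to 15 for H/+ hybrid against cDC1 and cDC2, 5 to 6 and 16 to 18 for H/H hybrid against cDC1 and cDC2, 0 for H/H against H/+ hybrid and 4 to 6 for the difference of the H/H effects. In experiment 2 they were 4 to 7 for H/H against WT cDC1, 5 to 11 for H/H hybrid against cDC1, 2 to 3 and 1 to 2 for Nfil3 loss in cDC1 and hybrid cells, 1 to 2 for the Zeb2 allele and 0 for the difference of the Nfil3 effects. A lone library is then assumed to vary like the other groups.

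With the replicate number as a block, the count was 2 for H/H against H/+ cDC1 and 11 for H/H hybrid against H/H cDC1 in experiment 1. Same-numbered libraries deviated together (correlation above 0.1) in 24 of 28 pairs of groups in experiment 1, from 0.04 to 0.34, and in 2 of 15 in experiment 2, from -0.20 to 0.23. In experiment 1 libraries of 1 number thus share structure, and the number coincides with Xist there. With 10 sex-linked genes left out, 9 of the 28 pairs were above 0.1, and the lowest correlation was -0.04. Because not every pair was above 0.1 and the labels name no shared animal, the fit without the block was kept for both.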

Other observations

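In experiment 1 the 8 libraries that hold Xist were exactly those numbered replicate 2, and in experiment 2 they were 3 libraries of mixed number. A comparison of libraries with and without Xist, added after the data were seen, passed 3 of 47 members, 2 of them given here, in experiment 1, where 3.26% of all genes passed (edgeR). Gpr171 was higher with Xist by 0.60 ± 0.078 on the log2 scale (edgeR adjusted p = 0.00107), in 8 of 8 groups, and Gpr157 was lower by -0.40 ± 0.085 (edgeR adjusted p = 0.0167). In experiment 2, 0 of 40 members passed, where 0.103% of all genes did, and Gpr171 was at 0.05 (edgeR adjusted p = 1). Sex and replicate number cannot be told apart in experiment 1.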
